A study of Rattus norvegicus with 64 samples.

Results

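Whole blood from rats given a neurotoxic, hyperthermic course of amphetamine (AMPH) was compared across the genome with blood from saline controls kept at the same room temperature. The comparison used all 22 AMPH rats and all 6 saline rats held at 22.5 °C, which are 28 of the 64 rats in the series, and the 17366 genes listed in the files of all 28, of 26405 listed in any. They were adult male Sprague-Dawley rats given 4 injections 2 h apart, and blood was drawn by cardiac puncture 3 h after the last injection and frozen. AMPH rats were labelled hyperthermic, and in the study those that became too hot were cooled on ice, so drug, body temperature and cooling cannot be told apart here. Identifiers of 8 AMPH rats ended in W, as those of the 6 controls did (the W rats), and those of the other 14 did not (the non-W rats). The file names carry a sequencing project code, and by that code the non-W rats shared no project with the controls, while 7 W rats did. Project and treatment cannot be told apart for the non-W rats.

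At high doses amphetamine floods the body with catecholamines and raises body temperature. Cells exposed to heat or misfolded protein switch on chaperones through heat shock transcription factors. Stress hormones also change which white cells circulate, so that neutrophils enter the blood while lymphocytes leave it.

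Library totals ran from 19055610 to 40530330 counts, and haemoglobin genes, the defining transcripts of red cells, held 3.04% to 27.1% of counts after globin depletion. Each pair of libraries within a series differed beyond sampling noise. Some libraries stood apart, and results that rest on them are given with and without them. The library labelled AMPH 17 had -100.6 on the first principal component, beside -97.9 to -37.2 in the saline rats. For 0 of the 30 leading entries described later did it lie beyond the controls in the direction of the other AMPH rats, so its values go against its label, and whether the label is right was not tested. AMPH 21 had 194.2 on the second component and the highest haemoglobin share. Saline 19 had a summed neutrophil list level of 23945 CPM (counts scaled to library size), against 2352 to 13043 in the other controls. Saline 20 and Saline 22 had 11909 and 13382 counts of the myoglobin gene Mb, against at most 310 in the other 4 controls and 977 in AMPH rats. The study removed control rats with more than 5000 Mb counts, because high Mb could mean that cardiac muscle had entered the blood sample. Those rats belonged to its last control group, whose first libraries were aberrant, which it put down to a kit reagent. RNA of that group was then sequenced again. The labels do not say whether the controls used here are that group, or which sequencing run their counts come from. Here Saline 20 and Saline 22 were kept in the main comparison and left out in an alternative one.

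**Figure D1:**
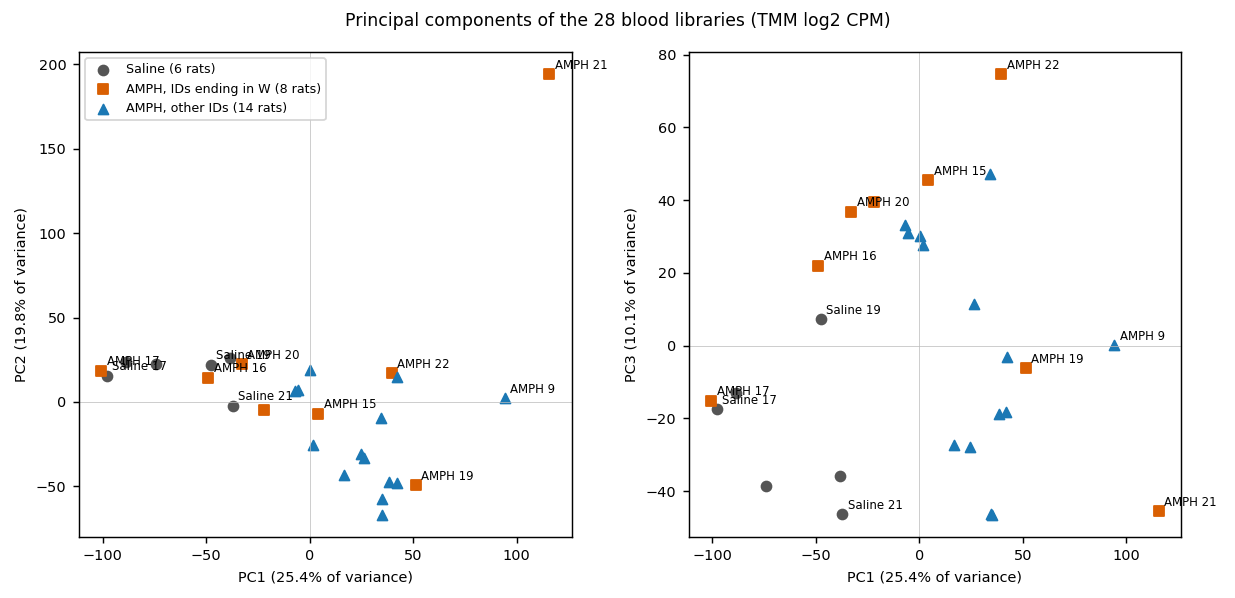
Principal components of scaled log2 CPM, 1 point per rat, coloured by group. The saline rats, AMPH 16 and AMPH 17 lie at the low end of the first component, from -100.6 to -37.2, and AMPH 21 lies alone at 194.2 on the second.

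The amphetamine course was accompanied by change in a large part of the blood transcriptome, with heat shock genes at its head. By edgeR's quasi-likelihood test, 2792 of 13246 genes tested, those with at least 10 counts in 6 or more rats, were called (21.1%), 1634 higher (12.3%) and 1158 lower (8.74%) in AMPH rats. A gene was called when its Benjamini-Hochberg adjusted p was below 0.05 and its log2 fold change was above 0.58 in size. Among called genes, 1065 rose and 463 fell by more than 1 on the log2 scale, and the median log2 fold change of all genes tested was 0.0081. With only the 4 controls low in Mb (Saline 17, 18, 19 and 21), 781 of 13539 genes (5.77%) were called, 550 of them higher, and 743 of the 2792 were called again in the same direction. Without Saline 19 and AMPH 17, 3791 genes were called, and 2704 of the 2792 were among them in the same direction. Ribosomal symbols accounted for 3 of the called genes among 114 tested, named after their values were seen, Rpl3l and Rps27l, paralogues of subunit genes, and Rps6kc1, a kinase-like gene. Leukocyte genes singled out in the study accounted for 18 of 27 tested, 10 higher and 8 lower. The other 2771 called genes, 1622 higher and 1149 lower, are described by leading genes and by lists.

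Promoters are printed for chaperone genes that rose and interferon-stimulated genes that changed, because chaperones held the largest rises and 3 interferon-stimulated genes were among the leading falls. Every promoter printed holds its element, so the set does not represent the leading genes. Of the genes printed, only Hsph1, Dnaja1 and Rsad2 were leading genes. They are RefSeq windows of the GRCr8 assembly, from 250 bases before to 50 after the gene start, read 5′ to 3′ on the gene's strand. The counts were made on rn5, another build. In the first 3, capitals mark a heat shock element, searched as GAA, any 2 bases, TTC, any 2 bases, GAA on either strand.

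Hsph1 (chr12:10427118-10427417, plus strand): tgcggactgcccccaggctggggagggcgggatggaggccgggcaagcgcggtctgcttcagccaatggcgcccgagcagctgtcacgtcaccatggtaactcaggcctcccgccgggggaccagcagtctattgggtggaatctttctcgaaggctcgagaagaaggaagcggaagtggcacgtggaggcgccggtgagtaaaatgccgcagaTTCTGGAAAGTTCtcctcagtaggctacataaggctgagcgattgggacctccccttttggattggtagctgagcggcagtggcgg

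Dnaja1 (chr5:60638154-60638453, plus strand): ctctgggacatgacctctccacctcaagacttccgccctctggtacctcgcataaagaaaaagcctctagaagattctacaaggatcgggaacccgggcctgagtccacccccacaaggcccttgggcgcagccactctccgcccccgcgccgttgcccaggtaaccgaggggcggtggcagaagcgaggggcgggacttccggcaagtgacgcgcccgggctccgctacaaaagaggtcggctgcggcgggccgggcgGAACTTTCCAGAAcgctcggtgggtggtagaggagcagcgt

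Hspd1 (chr9:64083988-64084287, minus strand): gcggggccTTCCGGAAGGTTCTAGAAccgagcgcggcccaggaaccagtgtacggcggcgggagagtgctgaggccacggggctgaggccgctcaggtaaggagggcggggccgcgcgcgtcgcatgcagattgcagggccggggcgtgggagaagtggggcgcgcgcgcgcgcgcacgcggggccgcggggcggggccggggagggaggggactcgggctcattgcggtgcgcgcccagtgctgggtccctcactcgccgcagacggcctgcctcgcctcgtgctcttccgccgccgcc

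In the other 3, capitals mark an interferon-stimulated response element, searched as GAAA, any 2 bases, GAAA on either strand.

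Rsad2 (chr6:48788071-48788370, minus strand): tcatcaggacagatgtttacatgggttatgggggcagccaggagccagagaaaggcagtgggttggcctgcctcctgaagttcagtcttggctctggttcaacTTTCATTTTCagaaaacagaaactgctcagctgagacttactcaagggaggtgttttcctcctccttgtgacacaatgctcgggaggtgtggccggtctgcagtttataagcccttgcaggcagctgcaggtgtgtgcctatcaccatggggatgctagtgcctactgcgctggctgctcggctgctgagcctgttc

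Ifi44 (chr2:243303791-243304090, minus strand): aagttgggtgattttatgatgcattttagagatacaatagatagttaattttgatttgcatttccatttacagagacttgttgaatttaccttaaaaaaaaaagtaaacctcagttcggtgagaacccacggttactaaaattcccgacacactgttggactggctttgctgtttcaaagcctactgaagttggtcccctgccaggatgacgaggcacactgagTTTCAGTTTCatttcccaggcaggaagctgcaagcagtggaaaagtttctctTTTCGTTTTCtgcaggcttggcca

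Ifit3 (chr1:241527076-241527375, plus strand): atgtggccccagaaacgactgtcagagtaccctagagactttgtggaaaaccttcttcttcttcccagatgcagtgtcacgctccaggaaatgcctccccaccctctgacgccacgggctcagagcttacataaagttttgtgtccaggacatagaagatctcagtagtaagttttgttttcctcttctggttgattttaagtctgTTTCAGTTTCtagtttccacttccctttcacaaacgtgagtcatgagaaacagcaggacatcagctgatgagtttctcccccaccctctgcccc

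The heat shock element was present in 0.798% of 33469 promoters, in 0.545% of 9730 promoters of genes tested, in 1.3% of 1233 promoters of genes called higher and in 0.651% of 922 promoters of genes called lower. It was present in 6 of 15 promoters of the heat shock chaperone list, those of Chordc1, Dnaja1, Hspa8, Hspd1, Hspe1 and Hsph1. Among the promoters available for leading genes that rose, 2 of 8 held it, those of Dnaja1 and Hsph1. The interferon element was present in 3.92% of all promoters, in 2.98% of those of genes tested, in 2.51% of those of genes called higher and 3.25% of those called lower, and in 9 of 13 of the interferon-stimulated list. Among the promoters available for leading genes that fell, 1 of 8 held it, that of Rsad2. In Hspd1 the capitals join 2 overlapping matches. A match describes the letters only.

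The largest rise belonged to Hspa1b, which encodes the inducible chaperone Hsp70. It ran from 11.4 to 21.5 normalized counts in saline rats (median 14.4), from 8.89 to 74730 in W rats (median 3596) and from 2491 to 194961 in non-W rats (median 15309). From AMPH 15 to AMPH 22 the W rats had 52157, 44.2, 8.89, 5134, 26415, 1332, 2059 and 74730 normalized counts. Every AMPH rat lay above every control except AMPH 17, which lay below them all. The log2 fold change was 10.89 ± 1.75 (SE; adjusted p = 0.000663, edgeR). The files hold Hspa1b under 2 identifiers with the same counts in every rat, so near-identical Hsp70 copies could not be told apart.

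Hsph1, an Hsp110 chaperone that works with Hsp70, ran from 432 to 745 normalized counts in saline rats (median 541), from 489.8 to 124552 in W rats (median 27713) and from 12328 to 205108 in non-W rats (median 39479). Its log2 fold change was 6.57 ± 0.99 (SE; adjusted p = 0.000663, edgeR), and 20 of 22 AMPH rats lay above every control, AMPH 16 and AMPH 17 being the exceptions. Its promoter holds the heat shock element printed above. Hsp90aa1, the inducible cytosolic Hsp90, ran from 2579 to 5589 normalized counts in saline rats (median 2967), from 2820 to 216527 in W rats (median 49894) and from 37553 to 425140 in non-W rats (median 98205). It rose by 4.95 ± 0.76 (log2, SE; adjusted p = 0.000663, edgeR), and AMPH 17 was the single AMPH rat within the control range.

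Further chaperone and stress genes led the rises. Zfand2a, a stress-induced partner of the proteasome, rose by 5.46 ± 1.10 on the log2 scale (SE), the Hsp70 co-chaperone Bag3 by 3.38 ± 0.67 and the Hsp40 Dnaja1 by 3.34 ± 0.56. The small heat shock protein Hspb1 rose by 4.45 ± 1.21, and by 5.85 with the 4 controls low in Mb, from 0 to 70.2 normalized counts in saline rats. Hmox1, haem oxygenase, rose by 3.30 ± 0.71, SRXN1, sulfiredoxin, by 3.68 ± 0.70, Akr1b8, an aldo-keto reductase, by 5.38 ± 0.94 and the transcription factor Jun by 3.38 ± 0.65. The list also held genes with no chaperone role. Nat8l, the N-acetylaspartate synthase known from neurons, went from 0.603 to 11.1 in saline rats to 53.7 to 405 in non-W and 3.33 to 310.1 in W rats, a log2 fold change of 5.08 ± 0.83. Car4, a membrane-bound carbonic anhydrase, rose by 4.88 ± 0.90 and Gsg1 by 4.46 ± 0.74. These 11 genes had adjusted p-values from 0.000733 to 0.0101 in edgeR, and 18 to 21 of 22 AMPH rats lay above every control.

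**Figure D2:**
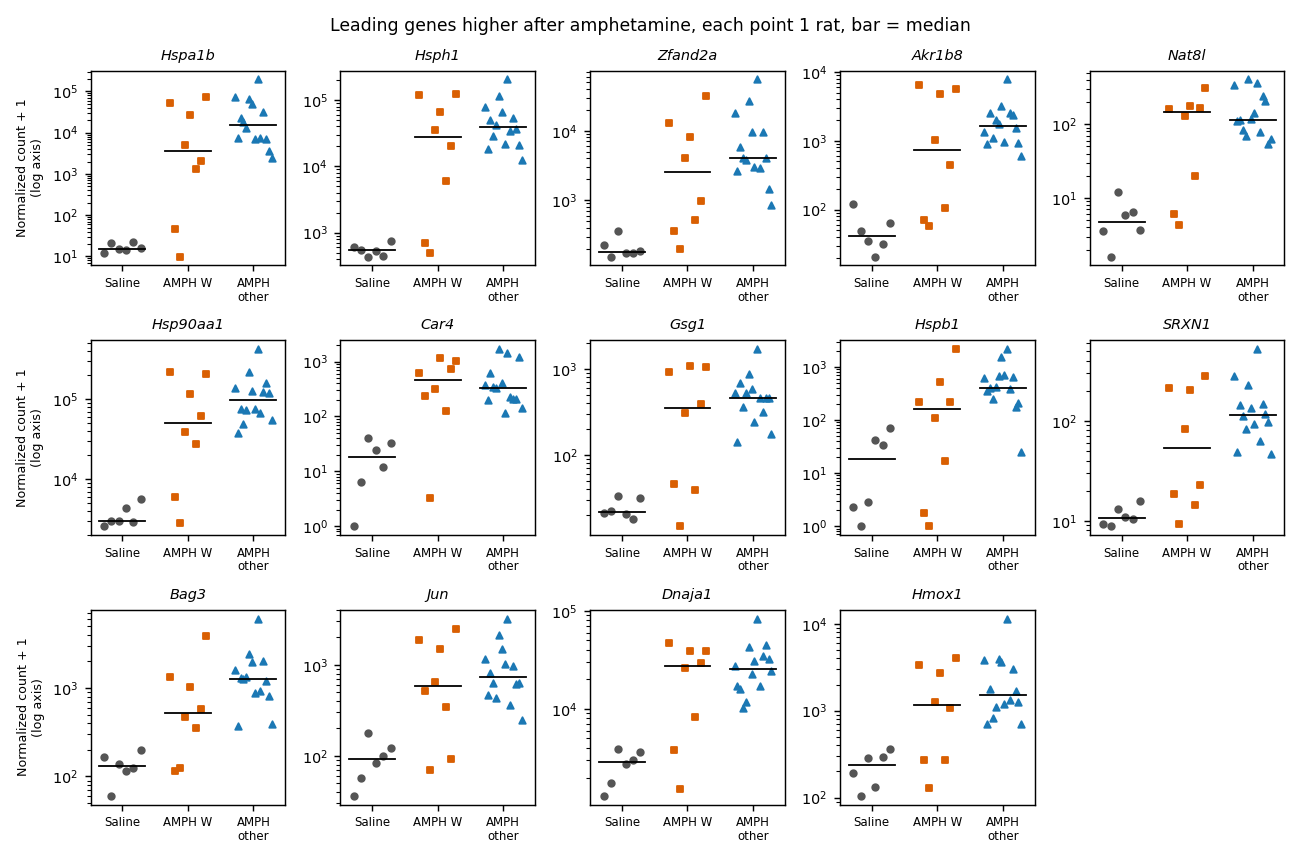
Normalized counts on a log axis for the 14 leading genes that rose, 1 point per rat, with a bar at each group's median. Non-W rats lie above the controls for nearly every gene, and W rats spread from the control level upward, from 8.89 to 74730 for Hspa1b.

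The leading falls were smaller than the leading rises and included antiviral genes. Rsad2, which encodes viperin, ran from 21338 to 38954 normalized counts in saline rats (median 31819), from 2185 to 26730 in W rats (median 5716) and from 2349 to 10993 in non-W rats (median 5475). Its log2 fold change was -1.94 ± 0.38 (SE; adjusted p = 0.00137, edgeR), with 19 of 22 AMPH rats below every control and AMPH 16, 17 and 20 within the control range. Mx2, an antiviral GTPase, ran from 112 to 377 normalized counts in saline rats (median 268), from 39.8 to 249 in W rats (median 63.1) and from 26.4 to 99.2 in non-W rats (median 56.3). Its log2 fold change was -1.78 ± 0.34 (SE; adjusted p = 0.00115, edgeR), and AMPH 16 and AMPH 17 were within the control range.

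Thy1, which encodes a cell surface glycoprotein, was among the genes that shared the smallest adjusted p. It ran from 132 to 1615 normalized counts in saline rats (median 346), from 63.5 to 210.5 in W rats (median 105) and from 25.8 to 148 in non-W rats (median 82.4), and 5 AMPH rats overlapped the controls. Its log2 fold change was -2.39 ± 0.33 (SE; adjusted p = 0.000371, edgeR). The highest control was Saline 20, and with the 4 controls low in Mb the log2 fold change was -1.45. Adck3, a kinase-like protein of coenzyme Q synthesis, ran from 116 to 300.4 normalized counts in saline rats (median 176), from 21.6 to 171 in W rats (median 57.8) and from 25.8 to 122 in non-W rats (median 67.6). Its log2 fold change was -1.50 ± 0.28 (SE; adjusted p = 0.000939, edgeR) and -1.11 with those 4 controls. Saline 20 and Saline 22 had the highest control counts.

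The other leading falls ran from -1.82 to -1.40 on the log2 scale. Rnase6, an antimicrobial ribonuclease, had -1.82 ± 0.39 (SE), the DNA methyltransferase Dnmt3b -1.42 ± 0.32, the antiviral GTPase Mx1 -1.40 ± 0.31 and Fam26f -1.47 ± 0.30. Sytl1, a synaptotagmin-like protein, had -1.59 ± 0.37, Sv2b, a vesicle glycoprotein, -1.43 ± 0.39, Cpne7, a copine, -1.70 ± 0.39 and Cdhr1, a cadherin-related protein, -1.80 ± 0.53. Tmem204 had -1.54 ± 0.34 and Zfp512b -1.52 ± 0.38. RT1-N2 had -1.59 ± 0.35, but it belongs to the MHC class I family, whose members share reads, and its value is uncertain. Sytl1, Tmem204 and Zfp512b were below every control in all AMPH rats except AMPH 17, while RT1-N2 was below every control in 11 of 22.

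**Figure D3:**
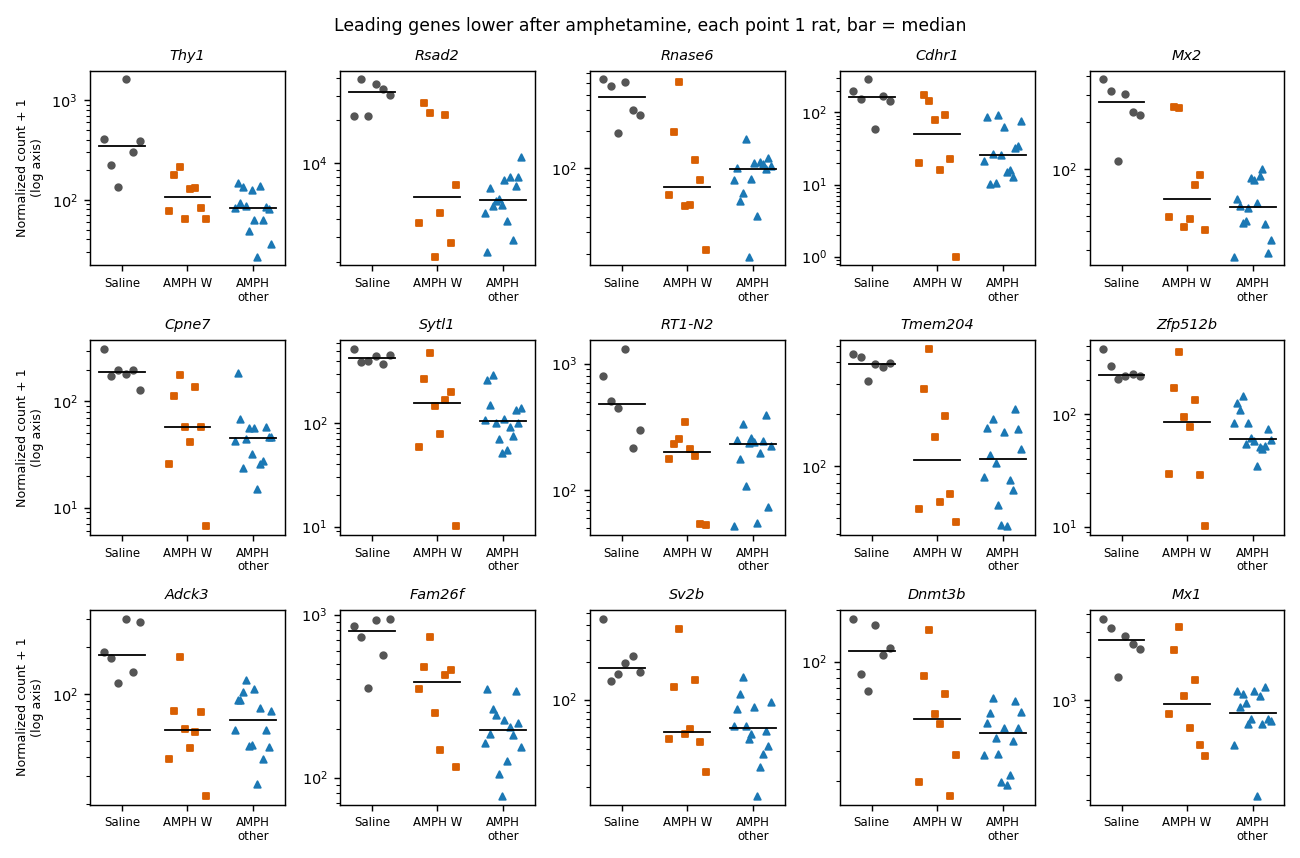
Normalized counts on a log axis for the 15 leading genes that fell, 1 point per rat, with a bar at each group's median. For Rsad2, 19 of 22 AMPH rats lie below every control, and for Thy1 the control at 1615 is Saline 20.

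Chaperone genes rose as a list. Of 21 tested entries 17 rose and 1 fell, with a median log2 fold change of 2.60, and 17 rose with the 4 controls low in Mb. The mitochondrial chaperonin genes Hspd1 (3.04 ± 0.75, SE) and Hspe1 (2.80 ± 0.71) were among them, and the promoter of Hspd1 is printed above. Cryab, a small heat shock protein abundant in heart, was the member that fell (-3.82 ± 0.90), and with the 4 controls low in Mb it had 1.26. Hsf1, the gene of the heat shock factor itself, had -0.05 ± 0.13. In the endoplasmic reticulum stress list 13 of 17 genes rose, with a median of 1.33, and 11 with those 4 controls. The folding enzyme Pdia4 had 1.60 ± 0.26, the transcription factor Xbp1 2.08 ± 0.36, the Hsp70 of that compartment Hspa5 1.50 ± 0.27 and its Hsp90, Hsp90b1, 1.34 ± 0.24. In the proteasome and ubiquitin list 3 of 18 rose, beside 12.3% of all genes, including UBB (0.77 ± 0.25), a ubiquitin gene, and Ubqln1 (0.66 ± 0.23), a ubiquitin shuttle.

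Genes of glycolysis and of defence against oxidants rose. Of 23 tested entries of glycolysis and hypoxia 16 rose, with all 6 controls and with the 4, and the median was 1.27. The enzyme gene Pgam1 ran from 1790 to 3502 normalized counts in saline rats and from 1975 to 15747 in AMPH rats, 20 of which lay above every control. Its log2 fold change was 1.83 ± 0.30 (SE), beside 2.12 ± 0.37 for Tpi1, 1.73 ± 0.31 for Aldoa and 1.54 ± 0.26 for Ldha, all glycolytic enzymes. Of 17 antioxidant and metallothionein genes 14 rose, 10 with the 4 controls. Over all genes tested 12.3% rose with all 6 controls, and 550 of 13539 with the 4. Thioredoxin reductase Txnrd1 had 2.47 ± 0.46, the quinone reductase Nqo1 2.41 ± 0.46 and the peroxiredoxin Prdx5 2.44 ± 0.47. Of 19 respiratory chain entries 1 was called, beside 21.1% of all genes. It was Cox5a (0.84 ± 0.26), and Uqcrc2 (-0.57 ± 0.14) missed the limit on size.

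In 5 lists of acute signalling and inflammation, the called genes were all higher, and their counts stand beside 12.3% of all genes called higher. Of 17 immediate early genes 12 rose, among them the transcription factors Atf3 (2.96 ± 0.67, SE) and Klf6 (1.34 ± 0.30) and Ier3 (2.63 ± 0.60). Of 13 genes of cyclic AMP and adrenergic signalling 6 rose, among them Crem (2.27 ± 0.49), Fosl2 (2.05 ± 0.40), the G-protein regulator Rgs2 (1.09 ± 0.27) and Nr4a2 (2.36 ± 0.59). Of 20 genes of inflammatory cytokines and NF-kB 10 rose, led by Il1a (3.48 ± 0.72), its receptor antagonist Il1rn (1.68 ± 0.35), oncostatin M, Osm (1.86 ± 0.40), and the cyclooxygenase Ptgs2 (2.75 ± 0.60). Tnf had 0.47 ± 0.38 and was not called. Of 18 pattern recognition genes 9 rose, including the receptors Tlr2 (1.63 ± 0.38), Tlr6 (1.27 ± 0.28), Clec4e (1.88 ± 0.39) and Clec4d (1.44 ± 0.34). Of 15 eicosanoid genes 8 rose, including Lta4h (1.03 ± 0.22), which makes leukotriene B4, its receptor Ltb4r (2.52 ± 0.71) and the prostaglandin receptor Ptger2 (1.84 ± 0.42). With the 4 controls low in Mb the numbers that rose were 4, 3, 4, 3 and 3 in that order. Calls were fewer over all genes too, with 550 of 13539 called higher. Saline 19 had the highest control sum for the immediate early and the pattern recognition lists. Counts per list without Saline 19 alone were not made. Without it 3136 genes were called over the genome, and of 85 genes named from all lists 3 lost the call and 1 gained it. Without Saline 19 and AMPH 17 together, 12, 6, 10, 11 and 9 rose, beside 1988 of 13342 genes tested.

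Hormone and interferon lists were mixed, and their counts stand beside 12.3% of all genes called higher and 8.74% called lower. The same shares apply to the clock and cell cycle lists. Of 18 glucocorticoid-responsive entries 4 rose and 2 fell. Cdkn1a (2.99 ± 0.55, SE), the decoy receptor Il1r2 (2.55 ± 0.58), Cebpb (1.63 ± 0.44) and Cebpd (1.04 ± 0.38) rose, and Klf9 (-0.82 ± 0.22) and Ddit4 (-0.72 ± 0.20) fell. Of these 6, Cdkn1a and Il1r2 were also called with the 4 controls low in Mb. Fkbp5 and Tsc22d3, common glucocorticoid targets, had -0.091 ± 0.21 and -0.056 ± 0.17. Of 20 interferon-stimulated genes 4 fell, Rsad2, Mx1, Mx2 and Ifi44 (-1.34 ± 0.29), and 2 rose, Ifit3 (1.23 ± 0.35) and Ifit2 (0.86 ± 0.27), although Ifi44 and Ifit3 both hold the element printed above. With the 4 controls low in Mb 4 fell and Ifit2 and Ifit3 did not reach the thresholds. Of 12 clock genes 3 fell, Tef (-0.81 ± 0.19), Nr1d2 (-1.12 ± 0.41) and Nr1d1 (-0.90 ± 0.34). Of 19 cell cycle entries the ribonucleotide reductase entries Rrm2 (1.89 ± 0.47) and RRM2 (1.69 ± 0.46) rose and Mcm5 (-0.73 ± 0.19) fell. These 3 clock genes and 3 cell cycle entries missed the threshold with the 4 controls low in Mb, with edgeR adjusted p-values of 0.0521 (Rrm2) to 0.134 (Mcm5).

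**Figure D4:**
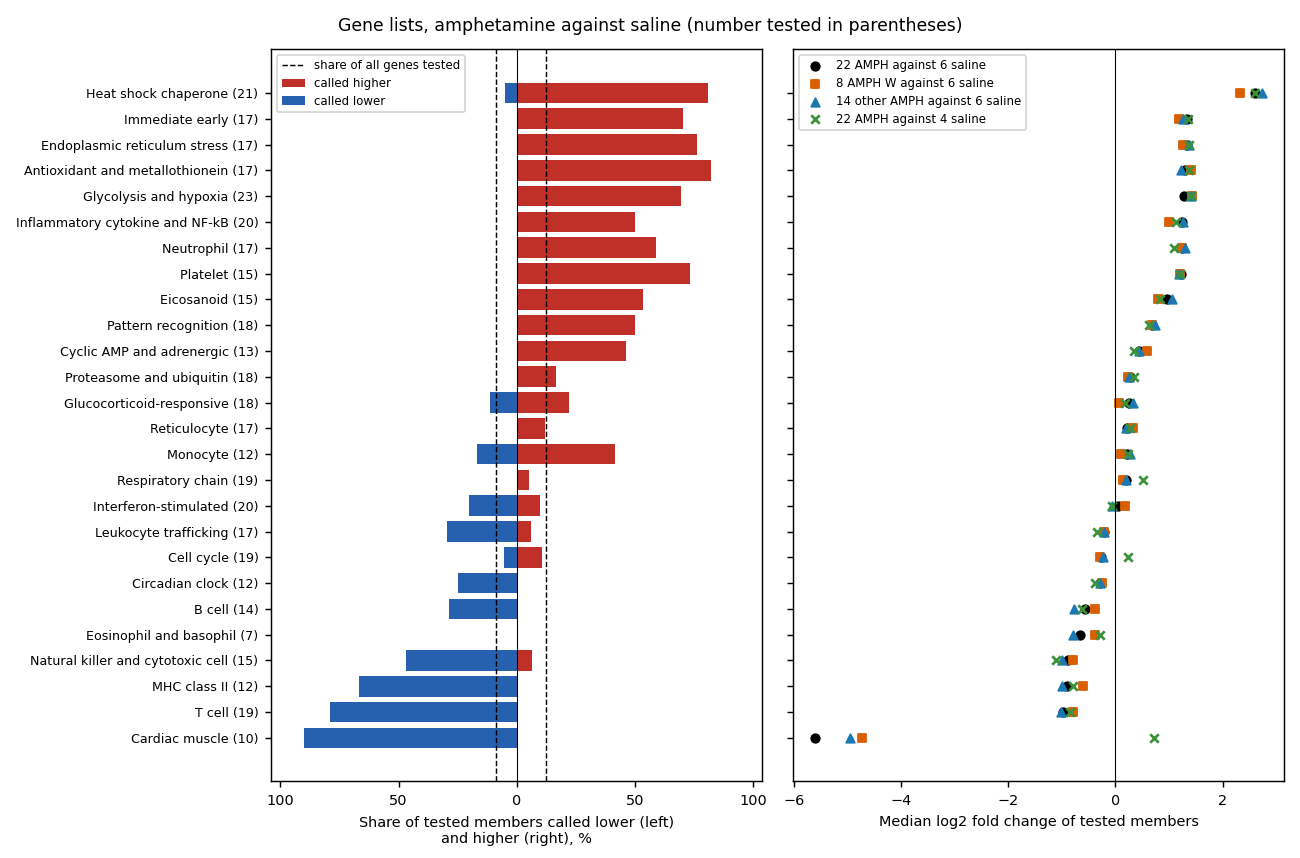
For each gene list, the share of tested members called lower and higher beside the shares over all genes (8.74% and 12.3%), and the median log2 fold change in several comparisons that share controls. The cardiac muscle list moves from -5.60 to 0.71 with the 4 controls low in Mb, and the chaperone list stays at 2.60 and 2.61.

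Lymphocyte genes were lower, where fewer cells of a type and less RNA per cell cannot be told apart in bulk blood. The study's blood cell counts were lower for lymphocytes and higher for monocytes and neutrophils after AMPH. How far those counts account for the gene changes was not tested here. Of 19 T cell genes 15 fell, including the surface receptor Cd5 (-1.26 ± 0.33, SE), the co-receptor Cd8b (-1.12 ± 0.24), the kinase Lck (-1.02 ± 0.25) and the adaptor Sh2d1a (-1.24 ± 0.26). The list sum was 988.2 to 1835 CPM in saline rats, 138.3 to 807.8 CPM in non-W rats and 112.2 to 1973 CPM in W rats, with AMPH 17 the highest of all rats. Of 15 natural killer and cytotoxic genes 7 fell, with the factor Tbx21 (-1.11 ± 0.32) and the receptors Klrg1 (-1.33 ± 0.39) and Klrd1 (-1.15 ± 0.35) named by rule, and Cst7 rose (1.08 ± 0.31). Of 14 B cell genes Fcer2 (-1.64 ± 0.44), Spib (-1.001 ± 0.32), Pax5 (-0.76 ± 0.26) and Fcrla (-0.69 ± 0.24) fell. Of 12 MHC class II entries, which present antigen, 8 fell, including RT1-Ba (-1.17 ± 0.30), RT1-Da (-1.06 ± 0.29), RT1-DOa (-1.58 ± 0.49) and RT1-Db1 (-0.82 ± 0.26). Among 17 trafficking receptors Cxcr3 (-1.01 ± 0.26), Cxcr6 (-1.25 ± 0.42), Ccr7 (-0.86 ± 0.31), Ccr9 (-1.42 ± 0.44) and S1pr1 (-0.68 ± 0.22) fell and 1 rose. With the 4 controls low in Mb, 2 T cell genes, 2 natural killer genes and 1 trafficking gene were called lower. B cell and MHC class II genes did not reach the thresholds there. Of all genes tested, 8.74% were called lower with all 6 controls, and 231 of 13539 with those 4. The medians with those controls were -0.85, -0.62 and -0.80 for T cells, B cells and MHC class II, beside -0.97, -0.57 and -0.90 with all 6.

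Many neutrophil and platelet genes were higher, and monocyte genes were mixed. Of 17 neutrophil genes 10 rose, including the receptors Trem1 (1.95 ± 0.38, SE) and Csf3r (1.74 ± 0.34) and the phosphatase Alpl (2.29 ± 0.52), and 15 rose without Saline 19 and AMPH 17. Of 12 monocyte genes Vcan (2.87 ± 0.49), Tnfrsf1b (1.06 ± 0.22), Fcgr1a (1.16 ± 0.28), and Hpse (0.97 ± 0.30) were among 5 that rose, and Cd4 (-1.05 ± 0.31), which T cells share, and Cd36 (-0.67 ± 0.21) fell. Of 15 platelet genes 11 rose, including the chemokine Ppbp (2.71 ± 0.43), Thbs1 (2.57 ± 0.59), the ADP receptor P2ry12 (1.22 ± 0.28) and the tubulin Tubb1 (1.42 ± 0.38), although the platelet sums of saline rats, 1242 to 4306 CPM, lay largely within those of non-W rats, 1386 to 6669 CPM. With the 4 controls low in Mb, 5 neutrophil, 2 monocyte and 4 platelet genes rose, beside 550 of 13539 genes tested. Of 17 reticulocyte genes 2 rose, Tfrc (1.34 ± 0.33) and Ermap (1.07 ± 0.37), beside 12.3% of all genes. Of 7 eosinophil and basophil genes tested, Ccr3 (-1.14 ± 0.50, adjusted p = 0.0853) and Ms4a2 (-1.06 ± 0.70, adjusted p = 0.259) had the lowest adjusted p-values in edgeR.

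Cardiac muscle genes were called lower in 9 of 10 tested members, led by Fabp3 (-5.82 ± 0.98, SE), Myl2 (-5.59 ± 0.97), Tnni3 (-5.92 ± 1.06) and Mb (-5.71 ± 1.05). Their summed level was 1502 CPM in Saline 20 and 1516 CPM in Saline 22, against 3.20 to 40.2 CPM in the other controls. Without these 2 rats the log2 fold changes of the 4 genes were 0.60, 0.22, 0.99 and 0.33.

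The W rats alone did not pass the thresholds against the 6 controls. By edgeR 0 of 12548 genes (0%) were called in the 8 W rats, with 2515 at an unadjusted p under 0.05 and a smallest adjusted p of 0.0965, whereas DESeq2 called 816 and limma-voom with a weight per rat called 2997. Without AMPH 17 edgeR called 1403 of 12413 (11.3%), and without AMPH 17 and Saline 19 it called 1981 of 12622 (15.7%). The 14 non-W rats gave 3824 of 12919 (29.6%). These fits share their controls.

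The 30 leading entries were chosen as the largest changes in a fit that held these same rats, so their calls in subsets of them are a description and no independent evidence. In the 8 W rats 0 of the 30 leading entries were called by edgeR (adjusted p = 0.0965 to 0.303), with 27 at an unadjusted p under 0.05. Without AMPH 17, 27 were called, 14 of 15 that rose and 13 of 15 that fell, and in the non-W rats all 30 were. Hspa1b had a log2 fold change of 10.31 ± 1.87 (SE) in W rats and 11.14 ± 1.26 in non-W rats. Rsad2 had -1.41 ± 0.54 in W rats, -1.71 ± 0.59 in W rats without AMPH 17 and Saline 19, and -2.35 ± 0.24 in non-W rats.

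Among lists, the 7 W rats without AMPH 17 and Saline 19 and the 14 non-W rats are set side by side, and the numbers of rats differ. The controls differ too, 5 for the W rats and 6 for the non-W rats. Over all genes tested, 15.7% were called in that W fit and 29.6% in the non-W fit. A smaller count in W rats is therefore not particular to a list. With all 8 W rats and all 6 controls, 0 members of these lists were called. The W medians were then 2.33 for chaperone, 1.43 for glycolysis, 1.24 for neutrophil, -0.79 for T cell and -0.79 for natural killer genes. Chaperone entries rose in 16 of 21 in W and 17 of 21 in non-W rats, with median log2 fold changes of 2.42 and 2.73. Glycolysis entries rose in 16 of 23 in W and 17 of 22 in non-W rats, with medians of 1.65 and 1.41. Neutrophil genes rose in 11 of 17 in both, with medians of 1.90 and 1.29. T cell genes were called lower in 12 of 19 in W and 19 of 19 in non-W rats, with medians of -1.12 and -1.01. Of 15 natural killer genes 1 rose in each series and 10 were called lower in non-W rats, while in W rats these missed the thresholds. The medians were -0.81 in W and -1.004 in non-W rats.

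Direction agreed nearly throughout. Of 3576 genes called in non-W rats and tested in W rats, 3564 had the same sign in the W rats, but the shared controls push both values one way, so the count is not independent evidence. Genes called higher in non-W rats had a median log2 fold change of 1.06 there and 0.95 in W rats, and genes called lower had -0.90 and -0.65.

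Compared directly, without controls, W and non-W rats differed in 0 of 12497 genes (0%) by edgeR, with 519 at an unadjusted p under 0.05, while DESeq2 called 63 and limma-voom 2. Without AMPH 19, edgeR called 155, 4 of them higher in W rats. Over the 30 leading entries the difference, W minus non-W, lay between -0.87 and 0.95 log2 units, with SEs of 0.29 to 1.01. For Hspa1b its 95% interval ran from -2.85 to 1.11, and for Rsad2 from 0.18 to 1.72. These intervals are normal approximations from the SE and are not adjusted for the number of genes. After adjustment the smallest p over the leading entries was 0.9999 (edgeR), so Rsad2 was not called different. A missed threshold does not show that both series responded alike.

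Single W rats differed widely. AMPH 15, 19 and 22 lay above every control for all 15 leading entries that rose and below every control for all 15 that fell. The counts were 15 and 13 for AMPH 18, 14 and 14 for AMPH 21, 11 and 10 for AMPH 20, 7 and 6 for AMPH 16, and 0 and 0 for AMPH 17. Non-W rats had 14 or 15 and 11 to 15. These rats took part in choosing the genes, so the counts describe them and test nothing. Saline 19, set against the other 5 controls, lay above them for 6 entries that rose and below them for 9 that fell, and Saline 22 for 6 and 1.

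**Figure D5:**
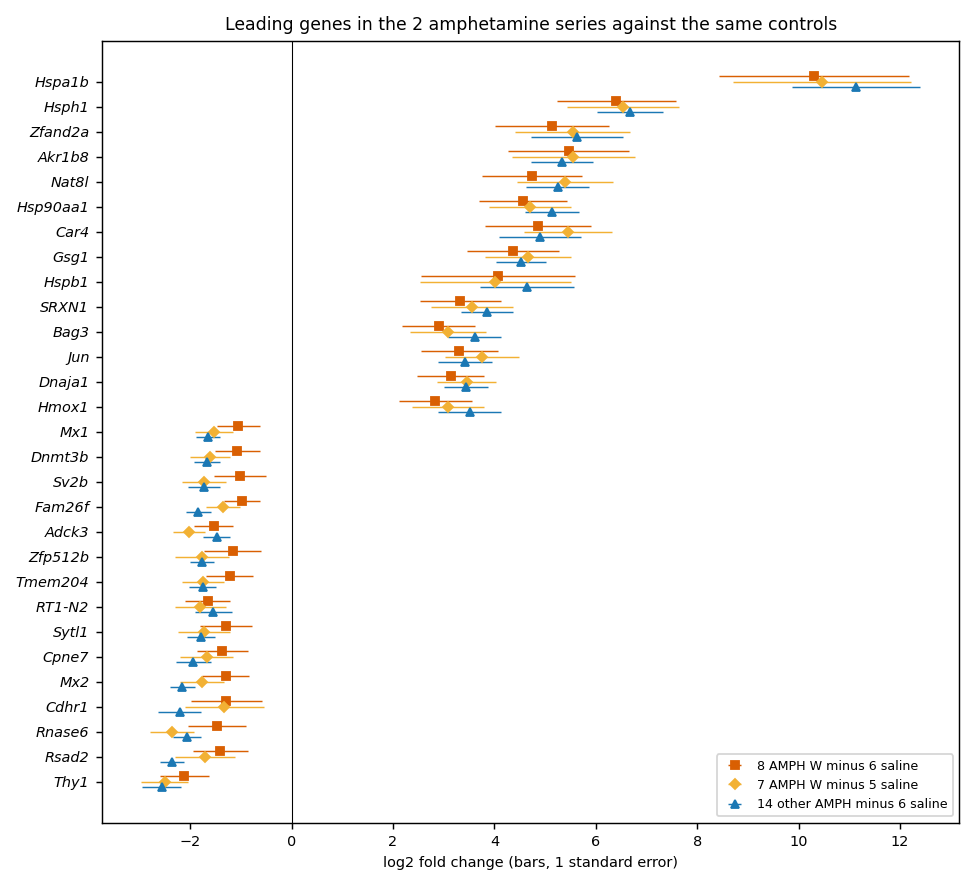
Log2 fold change with its standard error for the leading genes in W rats, W rats without AMPH 17 and Saline 19, and non-W rats, each against shared controls. Hspa1b stands at 10.31, 10.46 and 11.14, and 13 of 15 leading falls were nearer to 0 in the 8 W rats than in non-W rats.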

How the data were processed

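Globin-depleted, poly-A selected RNA from frozen whole blood was sequenced in stranded paired-end libraries. The submitters' processing notes name CASAVA 1.8.2, Bowtie 0.12.9, RSEM 1.2.0 and the build rn5. The authors deposited expected counts per gene from RSEM, 1 file per rat and not normalized. They were rounded to whole numbers, and genes listed in all 28 files of this comparison were kept. Totals of 19055610 to 40530330 counts limit mainly genes near the filter of 10 counts in as many rats as the smaller group has. Files of 36 rats in other environments were not used.

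Tests used edgeR 4.0.16 in R 4.3.3 with TMM scaling, the quasi-likelihood test and Benjamini-Hochberg adjustment over all genes tested, without covariates. DESeq2 1.42.0 and limma 3.58.1 (voom with sample weights) were alternatives, as were other scaling, no filter, absent genes as 0, other controls and leaving out rats. The fitting code was tested on simulated data. Normalized counts were divided by DESeq2 size factors.

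Leading genes were called with all 6 controls and with the 4 of at most 5000 Mb counts in the same direction, had a symbol, averaged 100 or more normalized counts in the AMPH or saline rats, and were neither ribosomal nor among 29 leukocyte genes of the study; the 15 largest rises and 15 largest falls were named. From each of 26 lists up to 4 called members were named by adjusted p, or the lowest where few were called. Other members were named after their values were seen. The rats, lists and rules were chosen with earlier results of these data known. Promoter windows were matched by symbol for 15 of 29 leading symbols. A few genes that the rule names are not reported here. Replicates are separate rats.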

Additional observations from a re-analysis of the deposited data

Results flagged for a closer look

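Within the saline rats and the W rats, 286 group values were screened for a rat far from the rest, by the gap to its nearest neighbour as a share of the group's range, and 34 stood out. Chance alone gives about 1 in 20 groups. AMPH 17 was the lowest W rat in 16 of them, with a gap share, among those given, of 0.621 for Car4, 0.682 for Trem1, 0.569 for Csf3r, 0.651 for Alpl, 0.545 for Xbp1, 0.651 for Cdkn1a, 0.693 for Il1r2, 0.593 for Rgs2, 0.561 for Ier3, 0.717 for Il1rn, 0.544 for Osm, 0.633 for Tlr6, 0.686 for Tlr2, 0.547 for Ltb4r and 0.56 for Rrm2. AMPH 22 was the lowest W rat with 0.535 for Cdhr1, 0.563 for Ccr3 and 0.543 for Ifi44, AMPH 21 was lowest with 0.738 for Nr1d2 and AMPH 19 was highest with 0.553 for Tnni3. Among the controls, Saline 20 was lowest with 0.758 for Klrg1 and 0.676 for Klrd1, and Saline 22 was lowest with 0.734 for Ccr3 and highest with 0.673 for Hsp90b1. Saline 19 was lowest with 0.698 for RT1-Db1 and highest with 0.654 for Klf6. For summed lists, AMPH 19 was highest for eosinophil and basophil genes (0.616), AMPH 16 for interferon-stimulated genes (0.59) and AMPH 20 for eicosanoid genes (0.721), and Saline 19 for immediate early (0.643) and pattern recognition genes (0.628). On the second principal component Saline 21 was lowest of the controls (0.63) and AMPH 21 highest of the W rats (0.706).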

How the results depend on the processing

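The count of called genes, 2792, was within 1.5 times of itself under other scaling, DESeq2, limma-voom, no filter and absent genes as 0. Leaving out 1 rat gave 1693 to 3535, with 1693 without Saline 17, 1697 without Saline 20 and 1849 without Saline 18. The 4 controls low in Mb gave 781. All 30 leading entries held under DESeq2, and 1 lost its call under limma-voom and 1 without Saline 17 (highest adjusted p leaving out 1 rat, 0.0698). With the 4 controls, 33 of 85 named list genes lost the call, and Fabp3, Myl2, Tnni3 and Mb reversed to 0.60, 0.22, 0.99 and 0.33. The cause was not tested.

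The W rats gave 0 genes with edgeR, 0 to 1403 leaving out 1 rat (377 without Saline 19, 1403 without AMPH 17), 816 with DESeq2, 2997 with limma-voom, 852 in 1 fit of 3 groups and 1981 without Saline 19 and AMPH 17. With project as a covariate, within 1 project, and with the 4 controls low in Mb, 0 genes were called in each case. Chosen after seeing the data, that 1 project without Saline 19 and AMPH 17 gave 1465. Over all projects, leaving out those rats and AMPH 21 gave 3241. The non-W count of 3824 ran from 3258 to 4266 leaving out 1 rat and from 2943 to 4308 otherwise. W against non-W gave 0, but 63 with DESeq2, 2 with limma-voom, 7 with no filter and 0 to 155 leaving out 1 rat.

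Rats numbered 17 to 22 occur in both groups. A replicate block over these 12 rats gave 0 called genes, as did the same 12 rats with no block. Correlations of same-numbered rats were 0.503, 0.0511, 0.039, -0.0844, 0.0833 and 0.101, and since 4 of the 6 were not above 0.1, the numbers were not taken to pair the rats. Number 17 and number 22 correlated best with their own number. Depth limits low genes, and the 6 controls limit each comparison that uses them.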
